A study of Mus musculus with 2 samples.

Results

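The Dlx, Msx and Barx1 genes encode homeobox transcription factors, proteins that bind DNA through a conserved homeodomain. Members were taken by gene symbol from the feature lists of both libraries, which gave 9 of 32285 genes: Dlx1 to Dlx6, Msx1, Msx2 and Barx1. Whole mouse embryos were dissociated at embryonic day 9.5 and profiled by single-cell RNA sequencing, with 1 library for the wild-type (WT) and 1 for the Usb1-null (Usb1 knockout) genotype. The Usb1-null embryos carried a germline deletion made by CRISPR/Cas9 in every tissue and came from intercrosses of heterozygous mice, and the study describes them as smaller than wild-type embryos at this stage. Usb1 encodes a nuclease known for shortening the tail of U6 RNA, a part of the spliceosome. The study asked whether its loss alters particular cell types of the embryo. The sources used here give no strain, no number of embryos per library and no further allele or treatment.

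In mammals the Dlx genes lie in linked pairs whose members point toward each other and share enhancers between them. In the pharyngeal arches, the outgrowths that form the jaws and the middle ear, neural crest-derived mesenchyme expresses Dlx genes in a nested order. Dlx1 and Dlx2 are used along the whole arch, whereas Dlx5 and Dlx6 specify the lower jaw. Msx1 and Msx2 respond to BMP signals in arch mesenchyme, limb buds, surface ectoderm and the dorsal neural tube. Barx1 marks the mesenchyme of the future molar region and of the stomach.

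In the GENCODE M21 annotation of GRCm38 the 3 Dlx pairs lay on chromosomes 2, 11 and 6. Dlx1 (chr2:71528113-71533981, + strand) ended 9426 bases from the end of Dlx2 (chr2:71543408-71546754, - strand). The gap was 15150 bases between Dlx3 (chr11:95120119-95125296, + strand) and Dlx4 (chr11:95140447-95146263, - strand), and 9236 bases between Dlx6 (chr6:6863334-6868568, + strand) and Dlx5 (chr6:6877805-6882085, - strand). Msx1 lay at chr5:37820485-37824583 (- strand), Msx2 at chr13:53466884-53473074 (- strand) and Barx1 at chr13:48662998-48666507 (+ strand). All 9 are annotated as protein coding. The files' feature lists name no build. The submitters' processing notes name mm10, the same assembly as GRCm38, and 99.6% of the files' 32285 gene identifiers were in this annotation.

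The coding sequences of the third helix of the homeodomain, the part that enters the major groove of DNA, are shown to let the Dlx genes be compared with each other and with Barx1. They were read from the GENCODE transcripts, 5′ to 3′ on the coding strand, and the capitals mark the codons of the most conserved motif. In the Dlx genes the 51 bases run across the junction of exons 2 and 3 of 3, whereas they lie inside exon 3 of 4 in Barx1.
Dlx1: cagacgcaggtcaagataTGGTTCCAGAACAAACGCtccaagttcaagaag
Dlx2: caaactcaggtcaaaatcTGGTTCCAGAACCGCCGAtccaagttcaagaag
Dlx5: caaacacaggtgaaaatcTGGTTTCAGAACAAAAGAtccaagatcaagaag
Dlx6: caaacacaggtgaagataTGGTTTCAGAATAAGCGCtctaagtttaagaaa
Barx1: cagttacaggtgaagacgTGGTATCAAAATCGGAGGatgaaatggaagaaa

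Over the whole homeobox of 180 bases, the linked pairs matched at 73.9% (Dlx1 and Dlx2), 71.7% (Dlx3 and Dlx4) and 73.3% (Dlx5 and Dlx6) of positions. The 12 unlinked Dlx pairs spanned a wider range, from 66.1% to 81.7% identity, with Dlx2 and Dlx3 the most alike. Msx1 and Msx2 matched at 82.2%, Dlx with Msx genes at 54.4% to 65%, and Barx1 with any other member at 49.4% to 57.2%. The reads lie near transcript 3′ ends, and the similarity of those ends was not compared.

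The filter on detected genes and mitochondrial reads left 15161 wild-type and 13018 Usb1-null cells, with medians of 1243 and 2299.5 unique molecular identifiers (UMIs, each standing for 1 captured transcript) per cell. With 1 library per group no test between genotypes is possible, and all intervals below are 95% intervals for counting error only. The libraries also differed in sex-linked RNA, with 53276 and 26 UMIs of Xist and with 14 and 23463 UMIs over 4 Y-linked genes, so genotype, embryo sex and depth cannot be told apart. Usb1 itself had 68 and 47 UMIs, or 3.13 and 1.41 counts per 1000000 UMIs (CPM). The counts do not show which part of the gene the tags came from, so they are no direct check of the deletion. The libraries shared 61 barcodes. Clusters were built without the members.

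The members were sparse. Msx1 was found in 4.56% of wild-type and 6.47% of Usb1-null cells, and every other member in under 2% of cells of either library. The next most widespread, Msx2, was found in 0.871% and 1.91% of cells. After each cell was thinned to 800 UMIs, which left out 2689 wild-type and 304 Usb1-null shallower cells, the shares for Msx1 were 2.7% and 2.48%, and those for Msx2 were 0.521% and 0.621%. For Msx1 the higher share in Usb1-null cells was thus not seen after thinning, which changed both the depth and the set of cells. Dlx4 had 3 UMIs in the wild-type and 5 in the Usb1-null library and is given no level by cluster.

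**Figure D1:**
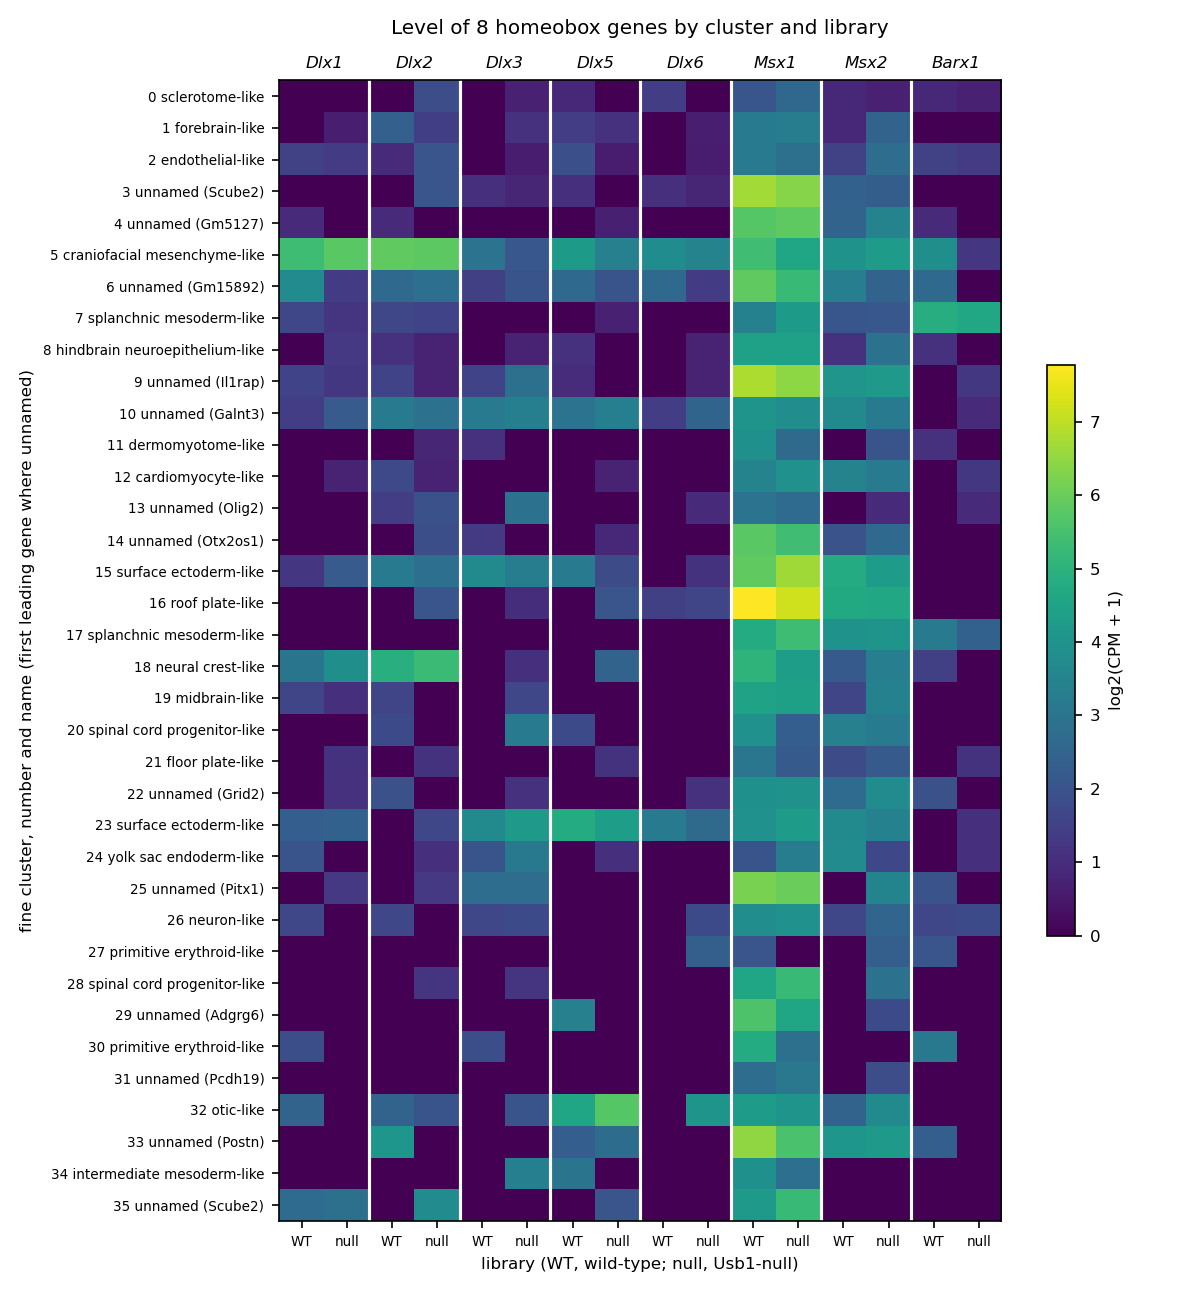
Heat map of the level of 8 members, as log2(CPM + 1), in the 36 fine clusters (rows) in which both libraries had 50 cells or more. For each gene the left column is the wild-type and the right column the Usb1-null library. Dlx1 and Dlx2 peak in the craniofacial mesenchyme-like cluster, Barx1 in a splanchnic mesoderm-like cluster, and Msx1 is present almost throughout with its peak in the roof plate-like cluster.

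Cells were grouped into 39 fine clusters, which were named only from marker lists. The craniofacial mesenchyme-like cluster held 738 wild-type and 544 Usb1-null cells, with 8 of 12 markers raised and Cdh19, Alx4 and Tfap2b among its leading genes. Of these, Cdh19 is on the neural crest and glial precursor list, not the craniofacial one. In the coarse partition 98.3% of its cells fell in a cluster named neural crest and glial precursor-like. Genes of the arches and of endothelin signalling differed in level there. Ednra had 296 and 302 UMIs and Mef2c 453 and 1087, whereas Hand2 had 5 and 4 UMIs, and Gsc and Lhx6 had 1 UMI each in the wild-type and 0 in the Usb1-null library. The second-arch gene Hoxa2 was found in 10 and 15 of its cells. The raised markers included Alx1, Alx4, Prrx1, Prrx2, Twist1, Tfap2b and Lhx8.

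Dlx1 and Dlx2, the pair used along the whole arch, were highest in the craniofacial mesenchyme-like cluster in both libraries. Dlx1 stood at 40.3 CPM (interval 29.6 to 53.6, 47 UMIs) in wild-type cells against 53.7 CPM (42.6 to 66.8, 80 UMIs) in Usb1-null cells. Dlx2 stood at 58.3 CPM (45.2 to 73.9, 68 UMIs) and 55.0 CPM (43.8 to 68.3, 82 UMIs). The intervals of the libraries overlapped for both genes.

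The neural crest and glial precursor-like cluster, led by Sox10, Foxd3 and Erbb3, came next for Dlx2. It had 28.7 CPM (16.4 to 46.6) in wild-type cells against 38.3 CPM (26.5 to 53.5) in Usb1-null cells. These Dlx2 intervals overlapped those of the craniofacial cluster in both libraries, so the order of these clusters was not separated. For Dlx1 the levels there were 7.18 CPM (1.96 to 18.4) and 13.5 CPM (6.98 to 23.6), below the craniofacial cluster with no overlap of intervals in either library. Over both libraries the craniofacial cluster held 64.8% of Dlx1 and 50.2% of Dlx2 UMIs, and the crest-like cluster 8.16% and 16.7%. In the forebrain and optic neuroepithelium-like cluster, Dlx1 had 0 and 1 UMIs and Dlx2 had 5 and 3.

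Dlx5 and Dlx6, the lower-jaw pair, were spread over mesenchyme and ectoderm. Dlx5 was found in the otic and placodal ectoderm-like cluster at 22.7 CPM (7.37 to 52.9, 5 UMIs) in wild-type cells against 51.9 CPM (30.3 to 83.2, 17 UMIs) in Usb1-null cells. It stood at 26.3 CPM (14 to 44.9) and 19.4 CPM (11.5 to 30.7) in a surface ectoderm-like cluster led by Gad2, Grhl2 and Aldh1a3, and at 18 CPM (11.1 to 27.5) and 9.40 CPM (5.14 to 15.8) in the craniofacial mesenchyme-like cluster. In wild-type cells the intervals of these 3 clusters overlapped and gave no order. In Usb1-null cells the otic-like cluster lay above the craniofacial cluster without overlap. In the neural crest-like cluster Dlx5 had 0 and 4 UMIs and Dlx6 had 0 in both libraries, whereas Dlx2 had 16 and 34.

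Dlx6 had its highest wild-type level in the craniofacial mesenchyme-like cluster, at 12.9 CPM (7.19 to 21.2, 15 UMIs), with 10.1 CPM (5.63 to 16.6, 15 UMIs) in Usb1-null cells. The otic-like cluster had 0 and 5 Dlx6 UMIs, the latter being 15.3 CPM (4.96 to 35.7). Dlx3, best known in ectoderm and placenta, was highest in the Gad2-led surface ectoderm-like cluster in both libraries. It reached 12.1 CPM (4.45 to 26.4) and 17.2 CPM (9.86 to 28) there, and 12 CPM (5.47 to 22.7) and 8.56 CPM (3.44 to 17.6) in the surface ectoderm-like cluster led by Trp63 and Wnt6. The intervals of these 2 clusters overlapped. The craniofacial cluster had 8 and 5 Dlx3 UMIs, and in Usb1-null cells its interval (1.09 to 7.83 CPM) lay below that of the Gad2-led cluster.

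Msx1, a target of BMP signals, was found in all 36 wild-type and 36 of 37 Usb1-null clusters of at least 50 cells. It was highest in the roof plate and dorsal neural tube-like cluster, led by Wnt3a, Wnt1 and Lmx1a, at 217.7 CPM (180.7 to 260.1, 121 UMIs) in wild-type cells against 146 CPM (123 to 172, 140 UMIs) in Usb1-null cells. The median cluster had 17.5 and 17.7 CPM. An unnamed cluster led by Tbx5, Fgf10 and Prrx1, genes of the limb field, had 112 CPM (92.6 to 134) and 85.9 CPM (71.4 to 102.5). An unnamed cluster led by Scube2 and Dcc had 101.5 CPM (82.1 to 124) and 81 CPM (66.2 to 98.2). These 2 overlapped each other and lay below the roof plate-like cluster in both libraries. The Trp63-led surface ectoderm-like cluster had 57.2 CPM (41.4 to 77) in wild-type but 100.3 CPM (79.8 to 124.5) in Usb1-null cells, where it came second. Cells with a UMI of Wnt1, a roof plate gene, had 129 and 84.5 CPM of Msx1, against 35 and 28.9 CPM in cells without one.

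Msx2 was found in 26 of 36 wild-type and 33 of 37 Usb1-null clusters. It stood at 25.2 CPM (13.8 to 42.3) and 24.0 CPM (15.2 to 36) in the roof plate-like cluster and at 26.6 CPM (16.2 to 41.1) and 18.3 CPM (10.3 to 30.3) in the Trp63-led surface ectoderm-like cluster. The Tbx5-led cluster had 15.5 CPM (8.84 to 25.1) and 17.5 CPM (11.3 to 25.8), and the craniofacial cluster had 14.6 CPM (8.49 to 23.3) and 18.1 CPM (11.9 to 26.4). The intervals of these 4 clusters overlapped in both libraries.

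Barx1 was highest in a splanchnic mesoderm-like cluster led by Fendrr and Foxf1, the mesoderm of the gut wall. It had 27.8 CPM (18.2 to 40.8, 26 UMIs) in wild-type cells against 23.6 CPM (16.5 to 32.7, 36 UMIs) in Usb1-null cells there. The craniofacial mesenchyme-like cluster came second in wild-type cells, at 13.7 CPM (7.84 to 22.3, 16 UMIs), and at rank 7 in Usb1-null cells, at 1.34 CPM (0.163 to 4.85, 2 UMIs). In the primitive erythroid-like cells of the coarse partition, a class that should lack these factors, each Dlx gene had at most 1 UMI per library. Msx1 had 11 and 2 UMIs there, or 15.7 CPM (7.84 to 28.1) and 4.87 CPM (0.59 to 17.6), so that the median cluster lay within this interval in the wild-type library (17.5 CPM) and at its upper end, just above it, in the Usb1-null library (17.7 CPM). Barx1 had 4 and 0 UMIs, or 5.71 CPM (1.56 to 14.6) and 0 CPM (0 to 8.98). Its wild-type interval in the craniofacial cluster overlapped this background, whereas that of the splanchnic mesoderm-like cluster did not.

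**Figure D2:**
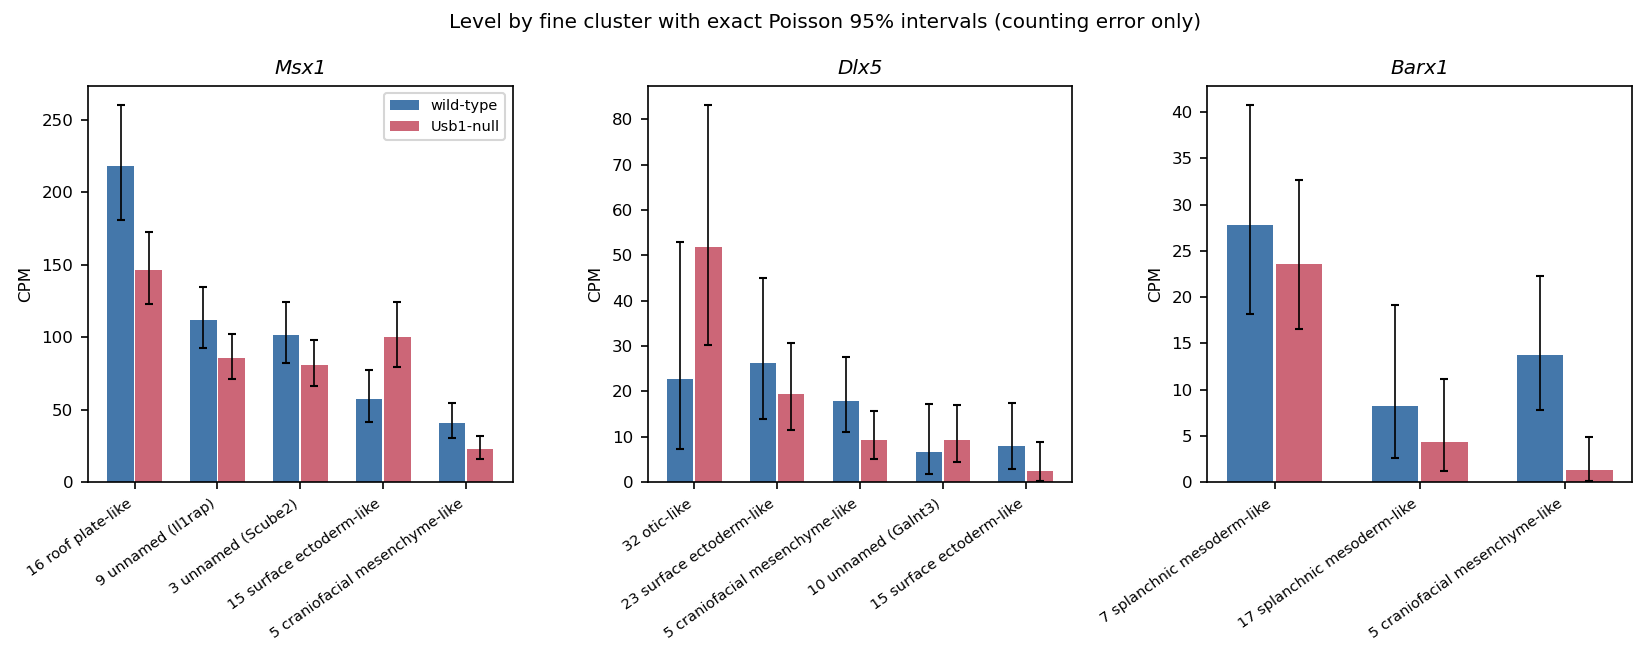
Level in CPM of Msx1, Dlx5 and Barx1 in selected fine clusters (bars, blue for wild-type and red for Usb1-null, each axis starting at 0), with exact Poisson 95% intervals for counting error. Msx1 is lower in the Usb1-null library in the roof plate-like cluster and higher in the Trp63-led surface ectoderm-like cluster, and the Barx1 intervals are apart in the craniofacial mesenchyme-like cluster but overlap in both splanchnic mesoderm-like clusters.

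Over all cells of a library, 1 of the 8 members with at least 50 UMIs, Barx1, differed by 1.5-fold or more, and it was lower in the Usb1-null library. Of all 16752 genes with as many UMIs, 9.2% were higher and 5.9% lower by this fold. The median log2 ratio was -0.02 over the members and 0.00 over all genes. Barx1 had 65 UMIs in wild-type (2.99 CPM) and 56 in Usb1-null cells (1.68 CPM), a ratio of 0.561 (0.385 to 0.814). Msx1 had 36.4 CPM (791 UMIs) and 30.6 CPM (1020 UMIs), a ratio of 0.839 (0.764 to 0.922). For Dlx1 the ratio was 1.05 (0.781 to 1.42) and for Dlx2 it was 0.944 (0.746 to 1.2). The ratios of Dlx3, Dlx5, Dlx6 and Msx2 ranged from 0.787 to 1.44, and each interval contained 1.

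Within the craniofacial mesenchyme-like cluster the Barx1 ratio was 0.0979 (0.0109 to 0.416), from 16 and 2 UMIs. These came from 15 of 738 wild-type cells (2.03%) and 2 of 544 Usb1-null cells (0.368%), so that no single cell carried the wild-type signal. After thinning to 800 UMIs the shares were 1.76% of 683 wild-type cells and 0 of 542 Usb1-null cells, where a limit of 3 counts leaves room for up to 0.554%. The erythroid-like cells had Barx1 in 0.503% (0.104 to 1.46) of wild-type cells and in 0 of 192 Usb1-null cells, at median depths of 839.5 and 1735 UMIs against 1414 and 2613.5 in the craniofacial cluster. In the splanchnic mesoderm-like cluster named above the ratio was 0.848 (0.498 to 1.46). Over all cells outside the craniofacial cluster, Barx1 had 49 and 54 UMIs and a ratio of 0.711 (0.474 to 1.07). The difference between the clusters was not tested.

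Msx1 in the craniofacial cluster stood at 41.1 CPM (48 UMIs) in wild-type cells against 22.8 CPM (34 UMIs) in Usb1-null cells, giving a ratio of 0.555 (0.347 to 0.879). The ratio of Dlx5 there was 0.522 (0.246 to 1.08) and that of Dlx6 was 0.783 (0.357 to 1.72). Dlx1 had a ratio of 1.33 (0.919 to 1.95), Dlx2 of 0.944 (0.676 to 1.32) and Msx2 of 1.24 (0.654 to 2.43). Of the 3 members with at least 50 UMIs in the cluster, Msx1 passed 1.5-fold, against 5.95% of 8154 genes higher and 7.22% lower. Of the 6 members with at least 20 UMIs, Dlx5 and Msx1 were lower and 0 were higher, against 9.67% of 10745 genes higher and 10.4% lower. Barx1, with 18 UMIs, fell short of both minimums.

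Other markers moved within this cluster too. The 12 craniofacial mesenchyme markers summed to 1553.5 and 1231 CPM, a ratio of 0.792 (0.742 to 0.846), with none at 0 over both libraries. The 9 neural crest markers summed to 376 and 512 CPM, a ratio of 1.36 (1.21 to 1.53), also with none at 0. The 9 erythroid markers summed to 260.5 and 82.5 CPM, with 2 of them, Gata1 included, at 0 in both libraries, and the 9 cardiomyocyte markers to 172 and 82.5 CPM, a ratio of 0.479 (0.380 to 0.603). The intervals of 4 further lists of the 24 left out 1, with ratios of 2.65 (1.4 to 5.36) for midbrain, 2.35 (1.19 to 4.96) for yolk sac and hepatic endoderm, 1.2 (1.04 to 1.38) for floor plate and 0.758 (0.615 to 0.935) for apical ectodermal ridge markers. The midbrain and yolk sac lists summed to at most 29.5 CPM in either library. The part of these shifts in the values of Barx1, Msx1 and Dlx5 was not tested.

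**Figure D3:**
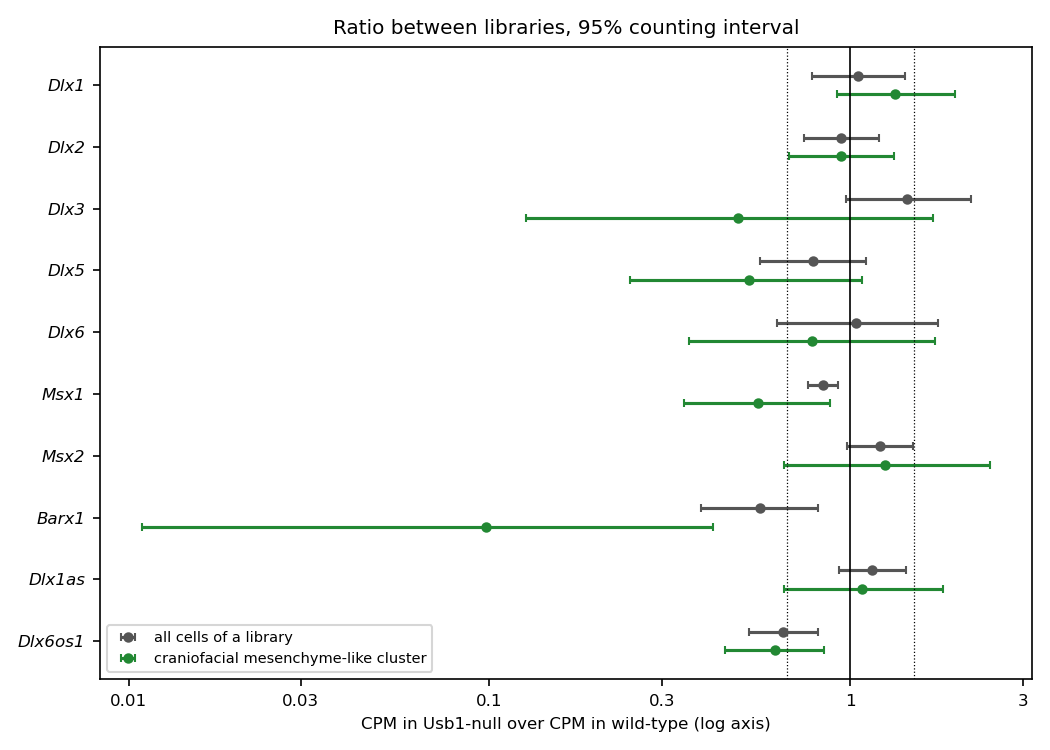
Ratio of CPM in the Usb1-null to the wild-type library for 8 members and the opposite-strand RNAs Dlx1as and Dlx6os1 (points, log axis), over all cells (grey) and in the craniofacial mesenchyme-like cluster (green), with 95% counting intervals. Solid and dotted lines mark equality and 1.5-fold. Among the members, the green intervals of Msx1 and Barx1 lie wholly below 1.

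Of the 37 genes on lists of arch and Dlx-related genes, 17 had at least 50 UMIs in the craniofacial cluster. Of these, 1 was higher by 1.5-fold or more in the Usb1-null library, 2 were lower, Dlx6os1 among them, and 14 lay within that range. Of all 8154 genes with as many UMIs there, 5.95% were higher and 7.22% lower. Mef2c, which acts downstream of endothelin in the lower arch and also in vessels and muscle, had 388 and 730 CPM, a ratio of 1.88 (1.68 to 2.1). The 9 listed crest mesenchyme factors with at least 50 UMIs there lay within 1.5-fold, from Alx4 at 0.684 (0.516 to 0.907) to Tfap2a at 1.35 (1.09 to 1.69). Lhx6, Lhx8 and Pitx1 of the same list fell short of that minimum. Of these, Lhx8 had 22 and 6 UMIs, a ratio of 0.214 (0.0709 to 0.543), and the others had at most 3 in either library. Ednra, the endothelin receptor, had a ratio of 0.799 (0.678 to 0.941). The lists of signals to the arches, of second arch identity and of ventral forebrain genes had no gene with 50 UMIs in this cluster. Over all cells 35 of the 37 genes could be compared, where 9.2% of all 16752 genes with as many UMIs were higher and 5.9% lower by this fold. Gbx2 was higher, at 1.75 (1.22 to 2.56), and 4 were lower. Among them were Dlx6os1 at 0.651 (0.522 to 0.812), Pitx1 at 0.663 (0.567 to 0.776) and Lhx8 at 0.463 (0.272 to 0.778). Pitx1 had 322 and 328 UMIs over all cells, of which only 0 and 3 lay in the craniofacial cluster.

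The lists also held 2 RNAs from the opposite strand of the Dlx pairs. Dlx1as (chr2:71516454-71537891, - strand) covers Dlx1, and Dlx6os1 (chr6:6820189-6871592, - strand) covers Dlx6. The sources used here do not say whether counting used strand, so reads of each RNA and its partner may not be cleanly separated. Dlx6os1 was highest in the craniofacial mesenchyme-like cluster, at 81.4 CPM (65.9 to 99.5) in wild-type cells against 50.3 CPM (39.6 to 63.1) in Usb1-null cells, giving a ratio of 0.618 (0.451 to 0.846). In the Gad2-led surface ectoderm-like cluster its levels were 46.5 and 46.3 CPM. Dlx1as had a ratio of 1.08 (0.653 to 1.81) in the craniofacial cluster, but it was also found in 32 of 36 wild-type clusters, erythroid-like cells among them (9 UMIs in each library), where the Dlx genes were at or near 0.

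Detection of both genes of a linked pair in the same cell was compared with the product of their shares. Dlx1 and Dlx2 were found together in 9 wild-type cells, against 0.523 expected from the product of their shares, and in 21 Usb1-null cells against 1.3. That expectation takes no account of clusters. Within the craniofacial mesenchyme-like cluster the counts were 8 against 3.61 in wild-type and 13 against 8.99 in Usb1-null cells, or 2.21 and 1.45 times the expectation. There the share of cells with Dlx1 that also had Dlx2 was 18.6% (8.39 to 33.4) in wild-type embryos and 19.4% (10.8 to 30.9) in Usb1-null embryos, against 7.77% and 12.6% of cells without Dlx1. The wild-type interval lay just above the share of cells without Dlx1, and the Usb1-null interval contained it. Thinned to 800 UMIs, 4 wild-type cells held both genes against 0.896 expected and 3 Usb1-null cells against 1.25.

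Dlx5 and Dlx6 were not found together in the craniofacial cluster, although 18 and 14 wild-type cells and 14 and 14 Usb1-null cells had a UMI of Dlx5 and of Dlx6. The expectation was 0.341 and 0.360 cells, so counts of 0 cannot show whether they were seen together less often than by the product of their shares. Over all cells they shared 0 wild-type and 2 Usb1-null cells, against 0.0989 and 0.258. Dlx3 and Dlx4 shared 0 cells in both libraries, with an expectation of at most 0.0303.

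Unlinked genes were seen together as well. In the craniofacial cluster Dlx2 and Dlx5 shared 8 wild-type cells against 1.51 expected and 6 Usb1-null cells against 1.88. Of the cells with Dlx5, 44.4% (21.5 to 69.2) in the wild-type and 42.9% (17.7 to 71.1) in the Usb1-null library also had Dlx2. After thinning only 1 and 0 such cells remained, against 0.369 and 0.0996, too few to compare. Dlx1 and Dlx5 shared 4 cells in each library against 1.05 and 1.72, or 3.81 and 2.32 times the expectation. For the linked Dlx1 and Dlx2 these values were 2.21 and 1.45. After thinning Dlx1 and Dlx5 shared 0 and 1 cells, too few to compare. Dlx1 and Msx1 lay below the expectation, with 2 and 3 cells against 2.68 and 4.06. Msx1 and Msx2 over all cells shared 12 wild-type cells against 6.02 and 39 Usb1-null cells against 16. After thinning they shared 1 cell in each library, against 1.76 and 1.96 expected, again too few to compare. Within the craniofacial cluster they shared 3 wild-type cells against 1.06 and 1 Usb1-null cell against 1.52. Over all cells, Dlx6os1 was seen in 7 of 25 wild-type cells with Dlx6 (28%, against 0.195 cells expected) and in 8 of 42 Usb1-null cells (19%, against 0.394). Within the craniofacial cluster it was seen in 5 of 14 cells with Dlx6 in each library, against 1.1 and 1.13 expected.

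**Figure D4:**
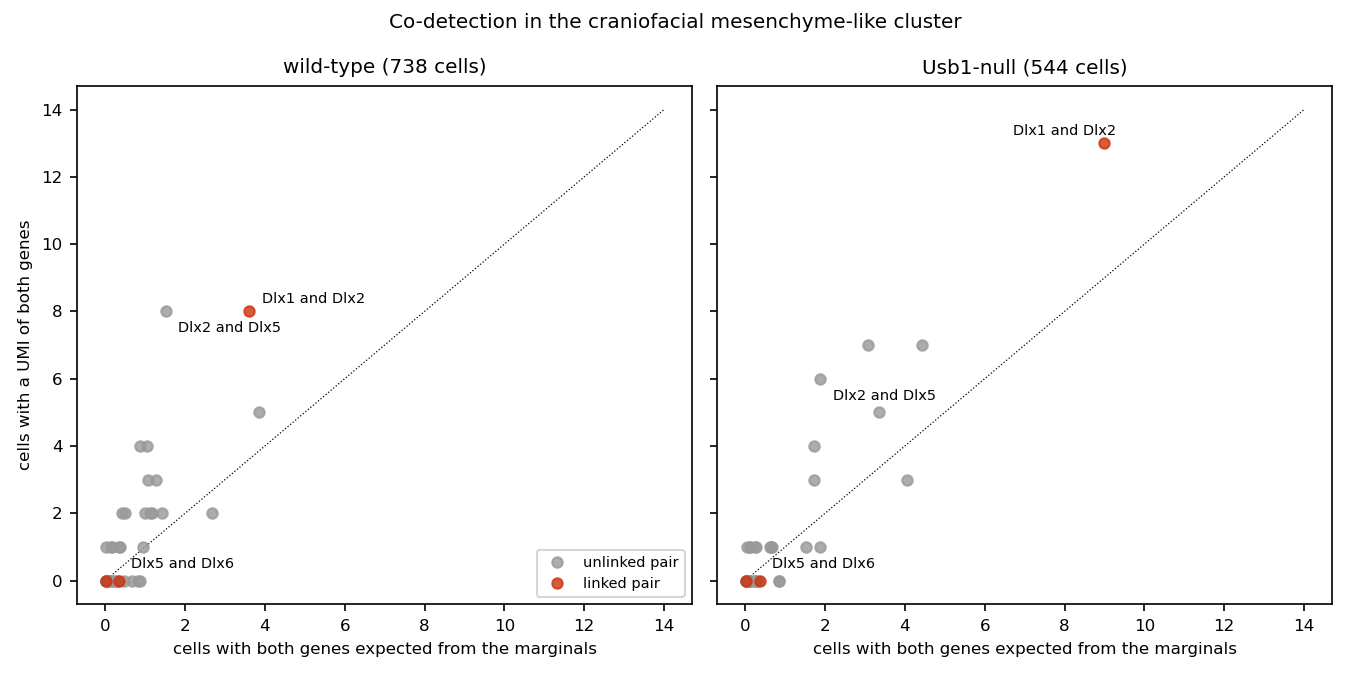
Cells with a UMI of both genes (vertical axis) against the number expected from the product of the shares (horizontal axis) for all 36 pairs of members in the craniofacial mesenchyme-like cluster, wild-type left and Usb1-null right. Red points are the 3 linked Dlx pairs and the dotted line marks equality. Dlx1 with Dlx2 lies above the line in both libraries, and Dlx5 with Dlx6 is at 0. Unlinked pairs, among them Dlx1 with Dlx5 and Dlx2 with Dlx5, also lie above it in both.

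The patterns across clusters were compared by Pearson's r of log2(CPM + 1), over 36 wild-type and 37 Usb1-null clusters and 13324 other genes (those with at least 200 UMIs, and all members whatever their UMIs). These values are descriptions, since clusters of a library share its depth and its background RNA. For Dlx1 the gene with the most similar pattern was Dlx2 (r of 0.56 and 0.75 in the 2 libraries), followed by Tfap2b and Tfap2a. For Dlx2 it was Dlx1, followed by Sox10 and Cdh19. Dlx5 was most like Dlx6os1 (0.67 and 0.73), then Erbb3 and Zfp652, and its partner Dlx6 ranked 4th. Dlx6 was most like Dlx6os1 (0.64 and 0.70), then Dlx5 and Slc35d1. The other linked pair did not rank as high, with Dlx4 at rank 48 for Dlx3, on 8 UMIs of Dlx4. Dlx4 itself was nearest to Tfap2a, Dlx6 and Gm26688.

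The remaining members had nearest genes outside the family. Dlx3 was most like Mir205hg, Mapk13 and Epcam, the last an epithelial adhesion protein. Msx1 was nearest to Wls, a carrier needed to secrete Wnt proteins, and then to Id1 and Unc5c. Msx2 was nearest to Id1, a common BMP target, and then to Unc5c and Prkci. Barx1 was nearest to Nr1h5, Kctd16 and Fendrr, an RNA of the lateral plate mesoderm.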

How the data were processed

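Single cells of dissociated embryos were barcoded with the 10x Genomics 3′ v3.1 chemistry. The labels call the molecule nuclear RNA, although the protocol describes whole cells. The authors deposited a matrix of raw UMI counts per gene and barcode for each library, unnormalised. The matrix headers name Cell Ranger 6.1.2, the submitters' processing notes Cell Ranger 2.1.1 and the mm10 build. No source used here states the annotation or the use of strand or introns. The libraries held 21751961 and 33775852 UMIs over 15162 and 13034 barcodes. Groups were taken from the genotype labels, and each comparison is between 1 library and another, with no test.

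Cells with 200 to 6000 genes and under 30% mitochondrial UMIs were kept, as in the study's filter. The study states fewer wild-type and more Usb1-null cells than this left, the latter equal to all Usb1-null barcodes. Counts were scaled to 10000 per cell, and 2000 variable genes were chosen with scanpy 1.11.5 without the members, Dlx1as, Dlx6os1, mitochondrial, ribosomal protein and sex-linked genes. The first 30 components were corrected for library by the Harmony algorithm (rewritten in NumPy 2.4.6) and partitioned with leidenalg 0.10.2 into 20 coarse and 39 fine clusters. Scrublet called 1085 and 648 doublets, which were kept. A cluster was named with the suffix "-like" where 1 of 24 marker lists had the most raised markers (at least 3, each with 10 UMIs and 2-fold), a marker among its 10 leading genes (at least 50 UMIs, 5 CPM added), and no other list had more there. The condition on leading genes was added after the clusters were seen. These names are not the study's own. No coarse cluster received the craniofacial name planned for the ratios, so the fine cluster was used. The coarse cluster that held 98.3% of its cells, named neural crest and glial precursor-like, became the alternative.

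UMIs were summed per cluster and library as CPM, with exact Poisson intervals for levels, exact Clopper-Pearson intervals for shares (a limit of 3 counts for the thinned share of 0) and exact conditional intervals for ratios (SciPy 1.17.1). These cover counting error only. The calculations were tested on simulated data. Text names all members, both opposite-strand RNAs, listed genes past 1.5-fold with at least 50 UMIs in the craniofacial cluster, position marks, and the 3 most similar genes of each member among the members and genes with at least 200 UMIs; other listed genes, over all cells or within 1.5-fold, were chosen after their values were seen. The members and gene lists were chosen with earlier results of these data known. Some listed genes and sequences are not reported here.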

Additional observations from a re-analysis of the deposited data

Results flagged for a closer look

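Msx1 differed in direction between clusters, and this difference was not tested. In the Trp63-led surface ectoderm-like cluster its ratio of Usb1-null to wild-type was 1.75 (1.2 to 2.6), from 43 and 82 UMIs and levels of 57.2 and 100.3 CPM. In the roof plate and dorsal neural tube-like cluster it was 0.671 (0.522 to 0.863), in the craniofacial mesenchyme-like cluster 0.555 (0.347 to 0.879), and in the unnamed Tbx5-led cluster 0.767 (0.590 to 0.997). These 4 of the 22 fine clusters with at least 20 Msx1 UMIs had intervals that left out 1. Thinned to 800 UMIs, 3.75% of wild-type and 8.75% of Usb1-null cells of the surface ectoderm-like cluster had Msx1, and 16.8% and 13.6% of the roof plate-like cluster.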

How the results depend on the processing

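No paired analysis was possible because each genotype had 1 library. All 45 alternative values of the whole-library ratios, all 54 of the ratios in the craniofacial cluster and all 64 of the levels in the coarse clusters stayed within the counting interval of the reported value. For Barx1 in the craniofacial cluster the alternatives ran from 0.0836 with the coarse partition to 0.139 with at least 1000 genes per cell. A second clustering seed was tried after seeing the data and gave 0.0961.

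Of 24 values of co-detection, 3 left the counting interval. Dlx1 with Dlx2 in wild-type cells was seen at 2.21 times the expectation, at 4.46 times after thinning and at 17.2 times over all cells, and in Usb1-null cells it was 16.1 times over all cells. The last 2 follow from leaving the cluster. Ranks of likeness moved more. With 10 CPM added, Dlx1 ranked 2 for Dlx2, Dlx6 ranked 2 for Dlx5 and Dlx4 ranked 91 for Dlx3. With at least 1000 UMIs required of genes other than the members, Dlx6 ranked 2 for Dlx5, Dlx5 ranked 1 for Dlx6 and Dlx4 ranked 23 for Dlx3, since fewer genes were ranked. Depth limits the sparse members most. Dlx4 could not be placed in a cluster, and a shortage of cells with both Dlx5 and Dlx6 in the craniofacial cluster could not be shown with these counts.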

Other observations

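Lhx8, a LIM homeobox gene of the oral side of the arches, had 22 wild-type UMIs (18.9 CPM) and 6 Usb1-null UMIs (4.03 CPM) in the craniofacial mesenchyme-like cluster, for a ratio of 0.214 (0.0709 to 0.543). It was chosen after its values were seen and had fewer UMIs than the 50 required above. In wild-type cells, Barx1 and Lhx8 shared 0 cells of the 15 and 21 that carried them, against 0.427 expected. Barx1 and Dlx1 shared 4 wild-type cells against 0.874 expected, and Barx1 and Dlx2 shared 3 against 1.26.

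Inside the craniofacial cluster, the intervals of the Dlx1 and Dlx2 ratios between cells with and without a UMI of Ednra contained 1 in both libraries. Dlx1 had 41.1 and 39.8 CPM in wild-type cells with and without Ednra, and 54.0 and 53.5 CPM in Usb1-null cells. With Nr2f1, a gene of the upper arch, Dlx1 stood at 38.4 and 44.1 CPM in wild-type cells with and without it, for a ratio of 0.870 (0.465 to 1.68), and at 59.2 and 24.9 CPM in Usb1-null cells, for a ratio of 2.38 (1.04 to 6.68). The last value rests on 6 UMIs in 104 cells without Nr2f1, whose median depth was 2199.5 UMIs against 2700.5. With 544 Usb1-null cells in the cluster, most of them carried Nr2f1, so this split cannot be read as one of position alone. The difference between the libraries was not tested.

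Dlx3 outside the craniofacial cluster had 31 wild-type and 81 Usb1-null UMIs, a ratio of 1.68 (1.10 to 2.64). Inside it the ratio was 0.490 (0.126 to 1.70), from 13 UMIs over both libraries. This interval contained 1 and overlapped the one outside the cluster. Over all cells the interval of the Dlx3 ratio (0.972 to 2.15) also contained 1. The difference between inside and outside was not tested.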
